A study of Mus musculus with 20 samples.

Results

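The 6 libraries described here are LPS-treated mouse bone marrow-derived macrophages given siRNA against Brg1 (n = 3) or control siRNA (n = 3), out of 20 libraries in all, and they were compared over all genes. Marrow of male C57BL/6J wild type mice had been grown into macrophages with L929 cell supernatant, and the cells of both groups carried 50 nM siRNA for 48 h in serum-free medium, with 100 ng/ml LPS and the ethanol vehicle for the last 6 h. The 4 other groups had Brg1 or control siRNA with 1 µM dexamethasone and LPS (n = 4 each) or with vehicle (n = 3 each). They served to ask whether the knockdown effect was different there. They also entered the gene filter and the estimate of spread behind the p-values, since all 6 groups were fitted together. The labels give neither the age of the mice nor whether replicates were separate animals or cultures, and the p-values below rest on the spread among libraries, which may be technical. A single Brg1 siRNA product was used, and an effect on other transcripts cannot be told apart from one of Brg1. The deposited table lists 17787 genes, and the 12061 that reached 10 normalized counts in 3 or more libraries were tested.

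Brg1, encoded by Smarca4, is one of the alternative ATPases of the BAF (SWI/SNF) complexes, which use ATP to slide or evict nucleosomes and so open enhancers and promoters. LPS, a component of the outer membrane of Gram-negative bacteria, binds the Tlr4 receptor with Cd14 and Ly96 and signals through MyD88 and TRIF to NF-kappaB, MAP kinases and interferon regulatory factors. In macrophages a first wave of genes, such as Tnf, needs no new protein, while later genes, such as Il6 and Il12b, are known to need chromatin remodelling and newly made factors, and the cells at the same time turn to glycolysis.

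Depth was 15.43 to 17.64 M reads in the Brg1 siRNA libraries and 15.68 to 16.61 M in the control siRNA libraries. Values below are normalized counts, that is reads divided by a size factor per library, and log2 fold changes are of Brg1 siRNA over control siRNA on log2(normalized count + 1). A gene is called at an adjusted p under 0.05 (limma, Benjamini-Hochberg over all genes tested), and "rose" and "fell" are used only of called genes. The macrophage markers summed to 414493 to 427516 with Brg1 siRNA and 270985 to 286651 with control siRNA. Lyz2 was the largest part of the sum, at a mean of 227039 and 128812, and Cd14 averaged 71107 and 44639. Of the 8 markers 5 were called higher and 1, Itgam, lower, where 17.3% and 15.8% of all genes tested were. Csf1r and Fcgr1 were not called. The mitochondrial share of counts was 0.856 to 1.19% and 1.01 to 1.5%. Among markers of other cells, with Brg1 siRNA and then with control siRNA, those of B cells summed to 11.2 to 22.7 and 71.0 to 109, mostly Ighm, those of mast cells and basophils (nearly all Kit) to 139 to 167 and 68.5 to 87.9, those of neutrophils (mostly S100a8, S100a9 and Ngp) to 313 to 325 and 267 to 307, those of fibroblasts (nearly all Pdgfrb) to 860 to 1051 and 958 to 1027, those of dendritic cells to 49.9 to 63.7 and 66.3 to 77.8, and those of T and NK cells to 28.7 to 32.4 and 35.3 to 49.7. Ighm was the only one of these markers called. Within these lists Cd79a, Cd3g, Ly6g, Cpa3, Dcn and Cd209a were at 0 in all 6 libraries. The part of other cells in the results below was not tested. Fewer cells of a type and less RNA per cell cannot be told apart in such bulk samples. Brg1 siRNA replicate 2 and control siRNA replicate 3 carry library numbers from a higher series than the other 4. The labels do not say what the series is, and on the fourth principal component these 2 lay at 21.5 and 26.9 while the other 4 lay between -27.9 and -3.55.

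The target itself fell in every library. Smarca4 (ENSMUSG00000032187, chr9:21616169-21704230 in GRCm38, plus strand) had 621, 559.5 and 600.1 normalized counts with Brg1 siRNA and 2989.8, 2899 and 2751 with control siRNA, a log2 fold change of -2.28 (SE 0.0849, limma adjusted p = 3.76e-12). The groups lie far apart, and each Brg1 siRNA library still held transcript. Smarca2, which encodes the alternative ATPase Brm, had 33.7, 105 and 80.7 and 45.1, 47.4 and 35.3 in the same order of groups, so that the groups overlapped, and it was not called (adjusted p = 0.158). Without Brg1 siRNA replicate 1, its lowest library, it was called higher at an adjusted p of 0.00615. Of 24 BAF subunit genes tested, 4 were called higher and 2 lower, where 17.3% of all genes tested were called higher and 15.8% lower. Apart from Smarca4 these changes were small or rested on few counts. The core subunit Smarcc1 averaged 391 ± 22.3 with Brg1 siRNA and 495 ± 34.4 with control siRNA (SD, n = 3 each; log2 fold change -0.34), and its call ended in 5 of 18 alternatives, among them leaving out Brg1 siRNA replicate 1 (adjusted p = 0.0696) or 2 (0.0502), or control siRNA replicate 2 (0.0573) or 3 (0.0719). With plain library totals as scaling, 1 BAF gene was called higher and 2 lower.

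Across the transcriptome 2089 genes rose (17.3%) and 1906 fell (15.8%), 33.1% of those tested. Counts of called members in the lists below are to be read against these shares. Most changes were moderate. The median fold of the genes that rose was 1.47 and that of the genes that fell 1.54, while 433 rose and 478 fell by more than 1 on the log2 scale. In 5558 genes, 46.1% of those tested, the 3 libraries of one group all lay above the 3 of the other. This held for 2008 of the 2089 genes that rose and 1810 of the 1906 that fell. Statements below that the groups of a called gene do not overlap therefore add little to its call. With plain library totals as scaling the median of all genes shifted by -0.13 on the log2 scale and the balance moved to 1334 higher and 2919 lower, so that 31.4% of the calls were higher in place of 52.3%. Changes are therefore given relative to the deposited scaling. When only libraries of the lower number series were fitted, 3407 genes were called, and 3244 of them (95.2%) had the same direction between the 2 higher-numbered libraries, against 77.7% of all genes tested. The share was lower among larger changes. It was 782 of 854 (91.6%) for calls over 1 on the log2 scale and 175 of 201 (87.1%) for calls over 2.

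**Figure D1:**
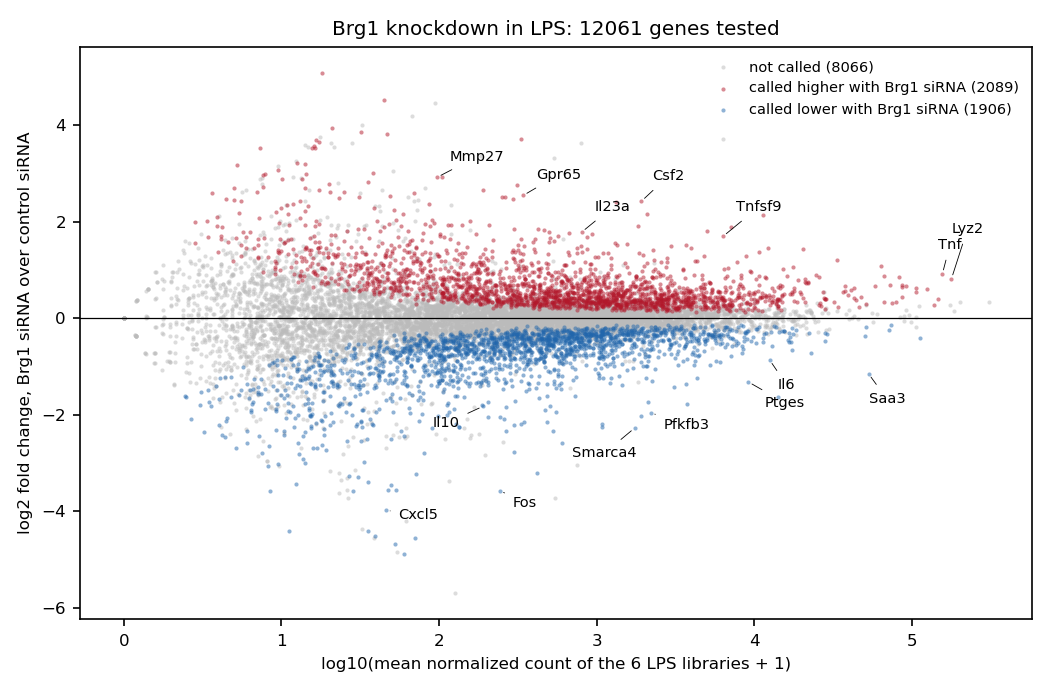
Log2 fold change in LPS of Brg1 siRNA over control siRNA (vertical) against the mean normalized count of the 6 libraries (horizontal, log10 of the count + 1), with 1 point per gene tested. The 2089 genes called higher (red) and 1906 called lower (blue) are spread over the whole range of levels, and Tnf and Lyz2 rise at the highest levels.

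The largest rises, by a rule on size, level and agreement of the libraries, were in surface receptors, cytokines and a protease. Mmp27, a matrix metalloproteinase, had 191, 168 and 155 normalized counts with Brg1 siRNA and 22.5, 23.1 and 19.3 with control siRNA (log2 fold change 2.93, SE 0.227, limma adjusted p = 2.81e-08). Gpr65, a proton-sensing receptor (ENSMUSG00000021886, chr12:98268635-98276644), had 613, 587 and 549 with Brg1 siRNA and 91.3, 115 and 92.0 with control siRNA (2.55, SE 0.0922, adjusted p = 2.99e-12). In both genes every Brg1 siRNA library was several times above every control library, but the rule took only genes whose groups do not overlap. P2ry13, a receptor for ADP, had 465, 364 and 444 with Brg1 siRNA against 67.6, 82.1 and 68.5 with control siRNA, and the sialic acid-binding receptor Cd33 had 406, 546 and 382 against 84.6, 76.4 and 68.5. Csf2, Lif, Coq8a (needed to make coenzyme Q) and Fblim1 (a filamin-binding adaptor) also met the rule, at log2 fold changes of 2.43, 2.36, 2.92 and 2.47. So did Lilra6, Gm15448, Gm14548 and the class I-like H2-Q6, but these share 49.6%, 71.4%, 83.9% and 50.3% of their 31-base words with other genes, and their counts are uncertain.

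The largest falls were in the AP-1 gene Fos, in matrix and protease inhibitor genes and in secreted factors. Fos (ENSMUSG00000021250, chr12:85473890-85477273) had 29.9, 54.8 and 29.6 normalized counts with Brg1 siRNA and 442, 407 and 489.9 with control siRNA. Its log2 fold change was -3.57 (SE 0.177, limma adjusted p = 1.18e-10). All 3 Brg1 siRNA libraries were at a small part of the control level. Tnfrsf9, the receptor 4-1BB, had 7.48, 13.7 and 19.3 against 136, 115 and 133 (-3.24). The cytosolic protease inhibitor Serpinb9b had 82.3, 64.8 and 77.3 against 538, 558 and 459 (-2.78), and Acss2, which makes acetyl-CoA from acetate, had 44.9, 39.9 and 51.1 against 204, 234 and 224 (-2.26). Groups that do not overlap were part of the rule that picked these genes. Haptoglobin (Hp), the metallothionein Mt2, the hyaluronan synthase Has1 and Col4a2 also met the rule, at -2.80, -2.59, -2.27 and -2.34. Exons of Mt2 overlap an antisense gene over 73.5% of their length, and whether counting used the strand is not given in the sources used here. Nup107 of the nuclear pore was at 0, 43.6 and 0 against 100.3, 106 and 105, so that its log2 fold change of -4.89 was -6.71 without Brg1 siRNA replicate 2 and -2.84 by DESeq2, and its call ended in the fit of only the LPS libraries (adjusted p = 0.0515). Col4a1 had 93.5, 87.2 and 61.4 against 818, 581 and 878, groups that do not overlap. Its call ended when any single LPS library was left out (limma adjusted p between 0.0687 and 0.106). It held in the fit of only the LPS libraries. The main fit shares its spread with the other groups. There Col4a1 averaged 2.27 ± 3.94 with Brg1 siRNA in vehicle and 55.0 ± 38.4 with Brg1 siRNA in Dex+LPS (SD).

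Promoter letters are shown for 2 genes that rose and 2 that fell, chosen because Tnf and Il6 are textbook LPS genes that moved in opposite directions and Gpr65 and Fos were among the largest changes. Each line is the 250 bases before the transcript start in RefSeq's annotation of GRCm38.p6, 5′ to 3′ on the gene's strand, with CG dinucleotides in capitals.
Tnf (rose, chr17:35202008-35202257, minus strand): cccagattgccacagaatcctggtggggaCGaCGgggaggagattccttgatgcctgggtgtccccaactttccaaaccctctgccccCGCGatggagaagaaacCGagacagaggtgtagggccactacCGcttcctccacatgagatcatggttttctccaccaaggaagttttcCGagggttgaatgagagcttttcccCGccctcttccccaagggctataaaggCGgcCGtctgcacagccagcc
Gpr65 (rose, chr12:98268385-98268634, plus strand): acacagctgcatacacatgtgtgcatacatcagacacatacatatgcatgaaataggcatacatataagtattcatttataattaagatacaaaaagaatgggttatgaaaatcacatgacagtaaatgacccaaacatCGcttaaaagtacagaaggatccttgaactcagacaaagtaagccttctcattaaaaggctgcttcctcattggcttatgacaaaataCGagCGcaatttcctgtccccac
Fos (fell, chr12:85473640-85473889, plus strand): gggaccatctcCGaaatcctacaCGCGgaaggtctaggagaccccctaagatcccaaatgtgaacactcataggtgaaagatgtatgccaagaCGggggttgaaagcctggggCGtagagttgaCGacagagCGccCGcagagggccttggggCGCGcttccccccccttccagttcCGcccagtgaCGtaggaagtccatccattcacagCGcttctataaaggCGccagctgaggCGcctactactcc
Il6 (fell, chr5:30012864-30013113, plus strand): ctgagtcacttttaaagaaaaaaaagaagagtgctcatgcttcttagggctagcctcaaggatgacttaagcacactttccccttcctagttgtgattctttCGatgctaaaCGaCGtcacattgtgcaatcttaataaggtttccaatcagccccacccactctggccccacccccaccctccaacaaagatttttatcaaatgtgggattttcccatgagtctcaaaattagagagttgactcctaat
The stretches hold 10, 3, 15 and 3 CG dinucleotides in the order given, so that both a CG-poor and a CG-rich example stand on the side that fell. Windows of 300 bases (250 before to 50 after the start) were found for 1675 of the 2089 genes that rose (80.2%) and 1545 of the 1906 that fell (81.1%). The ratio of observed to expected CG had a median of 0.70 (quartiles 0.455 and 0.854) in the genes that rose and 0.784 (0.619 and 0.925) in those that fell, and it was at least 0.6 in 62.6% and 77.0%. Over all genes tested, called or not, the median was 0.762 and the share 72.2%, and over those not called 0.772 and 73.6%. Windows were found for only 77.8% and 76.4% of these sets, under the 80% set for such a check, so the check against them is void and the values stand as a description. The RefSeq table as a whole, which includes genes not expressed here, had a median of 0.389 and a share of 35.6% over 27025 genes. Motifs were searched on both strands. The NF-kappaB motif (GGGA, any base, TTTCC) was in 0.41% of the windows of genes that rose (9 of 2208). It was in 1.04% of those that fell (20 of 1931) and 0.41% of all windows, and the Il6 stretch holds it. The interferon response motif (GAAA, any 2 bases, GAAA) was in 4.94%, 2.28% and 3.44%, and the AP-1 letters TGANTCA, also present in the Il6 stretch, in 7.02%, 5.7% and 7.81%. These are descriptions of letters, not of bound sites, and no test was made. All windows are those of the RefSeq table as a whole, with genes not expressed here, and a gene can have several windows. They are therefore not a background of the genes tested.

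**Figure D2:**
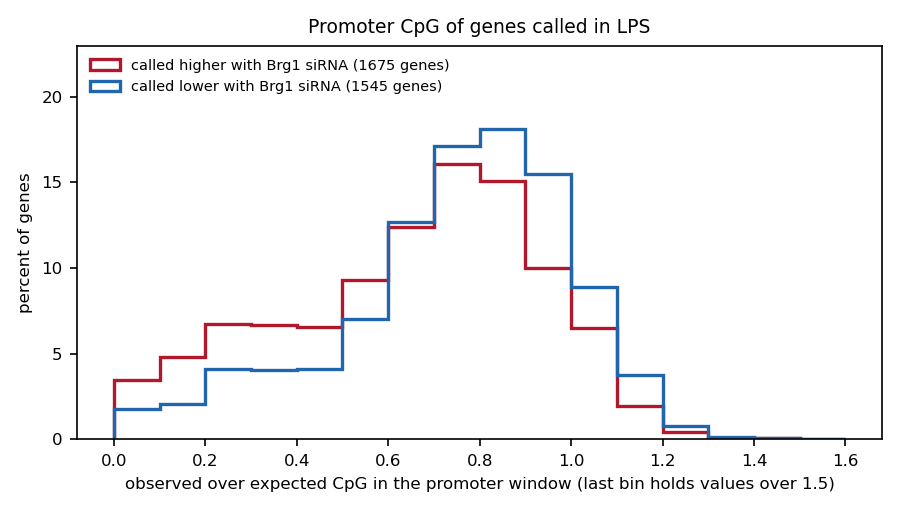
Observed over expected CG in the 300-base promoter window (horizontal) of genes that rose (red, 1675 genes) and fell (blue, 1545 genes) with Brg1 siRNA in LPS, as percent of each set (vertical). The genes that rose have more windows at low ratios, with a median of 0.70 against 0.784.

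Several genes of the LPS sensing machinery rose, and the outcome at the level of NF-kappaB genes was mixed. Of 21 receptor and adaptor genes tested, 8 were called higher and 1 lower (5 and 3 with plain library totals as scaling). Ticam2, the adaptor TRAM that links Tlr4 to TRIF, had 2899, 2818 and 2905 normalized counts with Brg1 siRNA and 1361, 1245 and 1266 with control siRNA (log2 fold change 1.16, SE 0.0669, limma adjusted p = 8.32e-10). Its libraries agree closely within each group, and 15.7% of its words are shared with other genes, chiefly its neighbour Tmed7. The LPS co-receptor Cd14 had 67789, 76500.2 and 69032 with Brg1 siRNA against 44396, 40606 and 48914 with control siRNA (0.67, adjusted p = 0.000118), and Cd180, a Tlr4-like receptor, had 6422, 5543 and 6353 against 3443, 3415 and 2935 (0.90). Ly96, which presents LPS to Tlr4, rose by 0.57. Tlr4 itself averaged 1208 ± 123 with Brg1 siRNA and 947 ± 84.4 with control siRNA (SD, n = 3 each), and its call at an adjusted p of 0.0464 ended in 10 of 18 alternatives (adjusted p between 0.0588 and 0.176 without any one of Brg1 siRNA replicate 1 or 3 or control siRNA replicate 1, 2 or 3).

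Among 22 NF-kappaB genes, 9 were called higher and 3 lower (5 and 4 with plain library totals). The subunit Rela averaged 3853 ± 194 with Brg1 siRNA and 2331 ± 182 with control siRNA (SD, n = 3 each; log2 fold change 0.73), and the inhibitor Nfkbib rose by 0.61. Nfkbiz, a nuclear IkB protein needed for many late LPS genes, averaged 13634 ± 270.4 with Brg1 siRNA and 9809 ± 196 with control siRNA. Against these, Tnip3, a binding partner of the inhibitor A20, had 2275, 1816 and 2104 normalized counts with Brg1 siRNA and 5113, 5739 and 4964 with control siRNA (-1.36, limma adjusted p = 3.83e-08), and Ikbkg, the regulatory subunit NEMO of the IkB kinase, had 1108, 1165 and 1068 against 2224, 2170.4 and 2446 (-1.03). Both genes are lower in every Brg1 siRNA library than in any control library.

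Of 24 AP-1 and immediate early genes 4 were called higher and 4 lower (16.7% each), near the 17.3% and 15.8% of all genes tested. Beside Fos, the AP-1 repressor Jdp2 had 665, 643 and 534 normalized counts with Brg1 siRNA and 1512, 1339.7 and 1463 with control siRNA (log2 fold change -1.23), and Myc averaged 137 ± 12.7 and 286 ± 33.1 (SD, n = 3 each; -1.06). Egr2, a zinc finger factor, went the other way. It had 1524, 1659.9 and 1565 with Brg1 siRNA and 648, 639.8 and 581 with control siRNA (1.34, SE 0.102, limma adjusted p = 2.08e-08). The Fos partners Jun, Junb and Jund had log2 fold changes of 0.08, 0.20 and -0.04 and were not called. The list's median was 0.07 with the deposited scaling and -0.06 with plain library totals. Of 14 MAPK phosphatases and RNA decay factors, which restrain inflammatory signalling, 6 rose and 1 fell. Dusp5, a phosphatase of ERK, had 282, 274 and 252 normalized counts with Brg1 siRNA and 163, 127 and 112 with control siRNA, and Dusp4 and Zfp36l2 rose by 0.61 and 0.69.

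Cytokine genes split by member rather than by family. Of 24 genes of the interleukin-12, -6 and -10 families and type I interferon with their receptors, 10 rose and 8 fell. Il12b, the p40 chain shared by interleukins 12 and 23, had 29508, 25683 and 33583 normalized counts with Brg1 siRNA and 12334, 10064 and 10459 with control siRNA (log2 fold change 1.43, limma adjusted p = 0.014). Il23a, the p19 chain of interleukin-23, had 1203, 987 and 1548 against 460.0, 316 and 305 (1.79, adjusted p = 1.56e-05). Each Brg1 siRNA library was above each control library in both, and the p35 chain Il12a, at 0.11, was not called. The call of Il12b ended with a pseudocount of 0.5 (adjusted p = 0.0627) and without the higher-numbered libraries (0.0729). Ebi3, a chain of interleukin-27, averaged 8359 ± 336 and 4684 ± 203 (SD, n = 3 each; 0.84). Lif, of the interleukin-6 family, had 132, 123 and 176 with Brg1 siRNA against 30.4, 34.7 and 18.2 with control siRNA, and its relative Osm averaged 462 ± 5.31 and 224 ± 24.7.

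Interleukins 6 and 10 were on the other side. Il6 (ENSMUSG00000025746, chr5:30013114-30019981), an acute phase inducer, had 9108, 7337 and 10314 normalized counts with Brg1 siRNA and 15424, 16803 and 16039 with control siRNA (log2 fold change -0.86, SE 0.128, limma adjusted p = 4.61e-05). Il10, which restrains macrophage activation, had 94.8, 72.3 and 81.8 against 285, 292 and 308 (-1.83, adjusted p = 9.11e-07). Neither gene's groups overlap. Il6ra, the receptor chain for interleukin-6, fell by 1.56 on the log2 scale, and the interferon receptor chains Ifnar1 and Ifnar2 fell by 0.74 and 0.46. Ifnb1, the type I interferon of this response, averaged 46.0 ± 4.64 with Brg1 siRNA and 27.7 ± 7.40 with control siRNA (SD, n = 3 each). Its groups did not overlap, but it was not called (adjusted p = 0.279, range 0.0612 to 0.503 over the alternatives).

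In the interleukin-1 family 2 of 9 rose and 2 fell (22.2% each, where 17.3% and 15.8% of all genes tested did). Il1a had 91185, 73626 and 95997 normalized counts with Brg1 siRNA and 44605, 41052 and 37319.7 with control siRNA (log2 fold change 1.08, limma adjusted p = 0.000405). Il18bp, a secreted antagonist of interleukin-18, had 464, 437 and 457 against 191, 212 and 190.4 (1.19). Il1f9, interleukin-36 gamma, had 84.8, 78.5 and 95.5 against 477, 426 and 418 (-2.34), and the receptor antagonist Il1rn had 10934, 9295 and 10846 against 16437, 14412 and 15334 (-0.57). All 4 separate the groups. Il1b averaged 225011 ± 22053 with Brg1 siRNA and 177856 ± 11075 with control siRNA (SD, n = 3 each) and was not called (adjusted p = 0.22), although it passed in the fit of only the LPS libraries (0.0362) and by DESeq2 (0.0378).

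Of 8 genes of colony-stimulating factors and their receptors 4 rose and none fell (4 and 2 with plain library totals). Csf2, which encodes GM-CSF, had 3314, 2842 and 3572 normalized counts with Brg1 siRNA and 655, 620.1 and 528 with control siRNA (log2 fold change 2.43, SE 0.233, limma adjusted p = 3.53e-07). Csf1, the macrophage growth factor, had 5705, 4881 and 5641 against 3029, 2957 and 2729 (0.89), and Csf3, which encodes G-CSF, had 133, 189 and 133 against 94.7, 62.5 and 93.1 (0.86). Every Brg1 siRNA library was above every control library in these 3 genes. The receptor Csf3r rose by 0.73, with 23.1% of its words shared with other genes, and Csf1r was at 0.17 and not called (adjusted p = 0.0502). It passed in 7 of 18 alternatives, among them without Brg1 siRNA replicate 1 (0.0457) or 3 (0.0468), with a lowest adjusted p of 0.00243.

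Ligands and receptors of the TNF superfamily moved apart, with 6 of 21 genes higher and 5 lower (5 and 6 with plain library totals). Tnf (ENSMUSG00000024401, chr17:35199381-35202007) had 203236, 195944 and 212568 normalized counts with Brg1 siRNA and 105469, 111627 and 105988 with control siRNA (log2 fold change 0.92, SE 0.0565, limma adjusted p = 1.61e-09), among the 5 largest gains of counts of called genes. Tnfsf9, the 4-1BB ligand, had 9829.7, 9096 and 10110.3 against 2875, 3139.9 and 2922 (1.70). Its receptor Tnfrsf9, given above, fell. Tnfsf4, the OX40 ligand, had 178, 125 and 184 against 47.4, 45.1 and 55.6 (1.68). The receptor Tnfrsf11a (RANK) fell by 0.93 on the log2 scale. Of the called members of the list, all those called higher, Tnf, Tnfsf4, Tnfsf8, Tnfsf9, Tnfsf12 and Tnfsf13, are ligands, and all those called lower, Tnfrsf1a, Tnfrsf1b, Tnfrsf9, Tnfrsf11a and Tnfrsf21, are receptors. The calls of Tnfsf8, Tnfsf12, Tnfrsf1a, Tnfrsf1b and Tnfrsf21 ended in some alternatives, where the adjusted p reached 0.054, 0.311, 0.15, 0.149 and 0.0815. Tnfsf13 shares 58.4% of its words with a read-through gene.

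**Figure D3:**
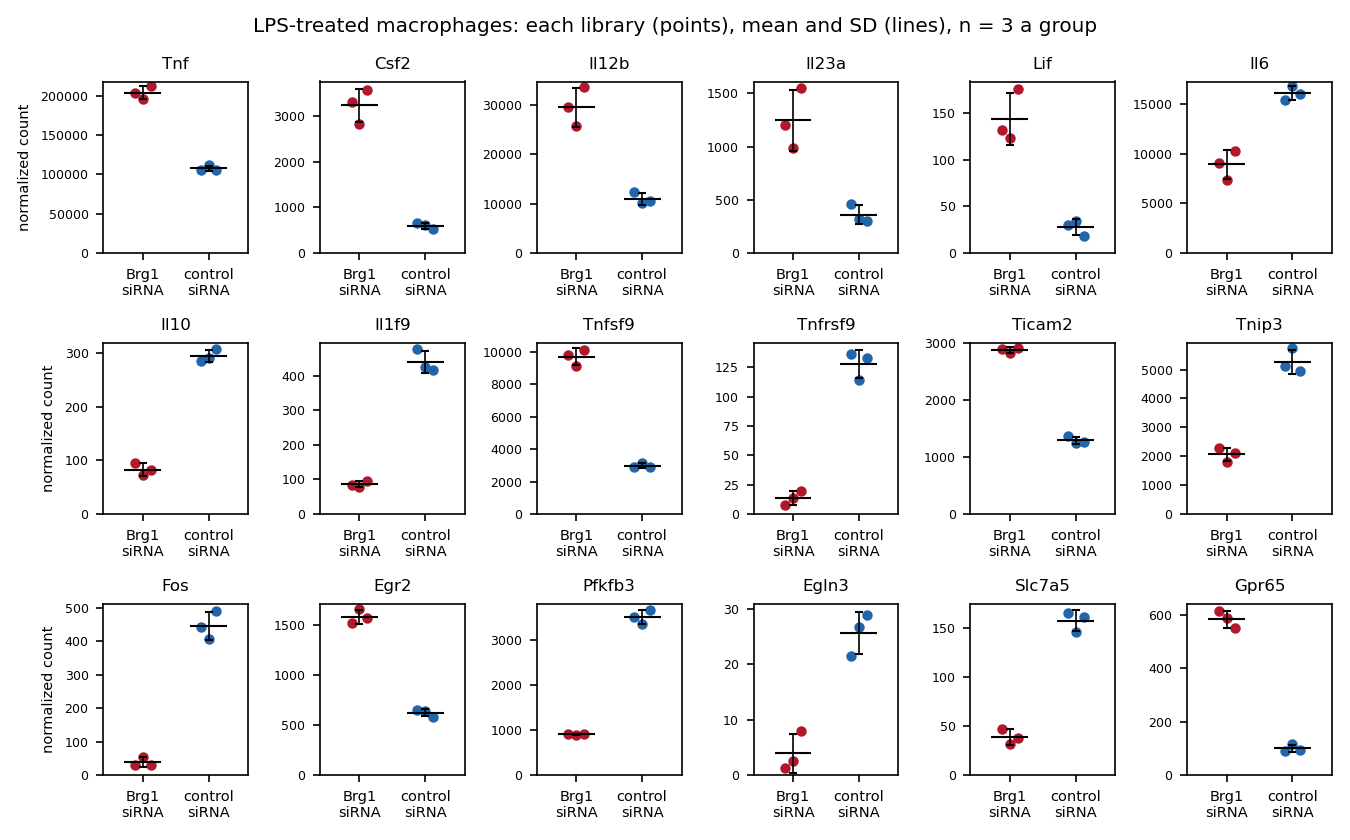
Normalized counts (vertical, linear from 0) of 18 genes in each LPS library, Brg1 siRNA left in red and control siRNA right in blue, with the mean and SD as black lines (n = 3 each). The 18 genes were chosen among called genes, and their groups do not overlap, as in 46.1% of all genes tested. Tnf, Csf2, Il12b, Il23a, Lif, Tnfsf9, Ticam2, Egr2 and Gpr65 are higher with Brg1 siRNA and the other 9 lower.

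Chemokines were less uniform. Of 12 CC chemokine genes 3 rose and none fell, and of 11 CXC genes 4 rose and 5 fell (2 and 0, and 2 and 5, with plain library totals). Ccl4 had 45384, 45092 and 45044 normalized counts with Brg1 siRNA and 30928, 29707 and 30484 with control siRNA (log2 fold change 0.57, limma adjusted p = 5.14e-06), Ccl6 rose by 0.89, and Ccl2 averaged 1721 ± 117 and 1409 ± 109.5 (SD, n = 3 each) without a call (adjusted p = 0.1), although it passed in 3 of 18 alternatives, among them the fit of only the LPS libraries (0.0349) and DESeq2 (0.0306). The neutrophil attractant Cxcl2 had 125988, 125004 and 134317 against 84314, 84341 and 81984 (0.62). Other members were lower. Cxcl5 averaged 7.49 ± 6.61 with Brg1 siRNA and 82.7 ± 2.80 with control siRNA (SD, n = 3 each; -3.98, adjusted p = 0.000186), and Cxcl3 had 17076, 15409 and 19451 against 29453, 28776 and 26681, with a call that ended without any single LPS library (adjusted p between 0.0507 and 0.117). Cxcl9, an interferon-gamma target, had 117, 82.2 and 132 against 234, 311 and 253 (-1.28; adjusted p = 0.0587 without the higher-numbered libraries), while Cxcl10 rose by 0.42, with calls lost in 5 of 18 alternatives (adjusted p = 0.0504, 0.0591 and 0.0742 without Brg1 siRNA replicate 1, Brg1 siRNA replicate 3 and control siRNA replicate 2). Of 26 receptors for chemokines, formyl peptides, purines and prostaglandin E2, 10 rose and 4 fell (9 and 5 with plain library totals). Beside P2ry13, the chemerin-binding receptor Ccrl2 had 3111, 3411 and 3326 against 1129, 1261 and 1315 (1.41), and the prostaglandin receptor Ptger4 had 589.7, 529.6 and 469 against 240.1, 266 and 231 (1.10).

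Genes of nitric oxide and of prostaglandin synthesis moved by step. Nos2, the inducible nitric oxide synthase, had 12506, 12129 and 12732 normalized counts with Brg1 siRNA and 6425, 6107 and 6449.7 with control siRNA (log2 fold change 0.98, limma adjusted p = 0.017, and 0.0867 without the higher-numbered libraries). Arg2, which competes for arginine, had 292, 245 and 294 against 113, 129.6 and 104 (1.26). Ass1, which recycles citrulline to arginine, had 2026, 2239 and 2552 against 4176, 3913 and 3971 (-0.83, with 43.1% of its words shared with other genes), and the arginine importer Slc7a1 fell by 0.53. In all, 2 of 10 genes of this list rose and 3 fell (2 and 4 with plain library totals). These are 20.0% and 30.0%, where 17.3% and 15.8% of all genes tested did. Among 13 prostaglandin and leukotriene genes 1 rose and 3 fell (7.7% and 23.1%). Ptges, the inducible prostaglandin E synthase, had 5144, 5266 and 5294 against 12226, 13001 and 14035 (-1.32, adjusted p = 1.67e-07), while Ptgs2 (cyclooxygenase-2), which acts before it, averaged 189931 ± 19345 with Brg1 siRNA and 156531 ± 5600.4 with control siRNA (SD, n = 3 each) and was not called (0.14).

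Most glycolysis and HIF-1 target genes fell. Of 33 tested, 22 fell and 4 rose, against 15.8% and 17.3% of all genes, and the list's median log2 fold change was -0.64 where that of all genes tested was 0.01. Pfkfb3, which makes the activator of phosphofructokinase, had 914, 879.8 and 913 normalized counts with Brg1 siRNA and 3501, 3361 and 3669.8 with control siRNA (-1.96, SE 0.0816, limma adjusted p = 1.41e-11). The phosphofructokinase Pfkl had 679, 744 and 633 against 1683, 1470.4 and 2077 (-1.33). The lactate exporter Slc16a3 had 741, 789 and 665 against 1771, 1469 and 1962 (-1.24). No Brg1 siRNA library reached a control library in these 3 genes. Further down the pathway Gapdh, Pgk1, Pgam1, Eno1, Pkm and Ldha fell by 0.50, 0.63, 0.97, 0.60, 0.49 and 0.43 on the log2 scale, and the glucose transporter Slc2a1 by 0.47. HIF-1 targets outside glycolysis fell too, with the mitophagy receptor Bnip3 at 340.4, 282 and 305 against 846, 696 and 754 (-1.31, with 20.3% of its words shared with other genes) and the oxygen sensor Egln3 at 1.25, 2.49 and 7.96 against 21.4, 26.6 and 28.9 (-2.68). The 4 that rose were the hexokinase Hk3, the transporter Slc2a3 (adjusted p up to 0.356 over the alternatives) and the repressors Bhlhe40 and Mxi1. In the fit without the higher-numbered libraries 17 of the list fell and 3 rose. Hif1a itself averaged 4741 ± 531 with Brg1 siRNA and 6129 ± 368 with control siRNA (-0.37), with an adjusted p of 0.0412 that ranged from 0.00503 to 0.165 over the alternatives.

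Of 35 antiviral interferon-stimulated effectors 10 rose (28.6%, against 17.3% of all genes tested) and 1 fell (2.9%, against 15.8%), with a median log2 fold change of 0.17. Irf7, an amplifier of interferon production, had 10572, 10789 and 10156 normalized counts with Brg1 siRNA and 5597, 5687 and 6437 with control siRNA (0.83, limma adjusted p = 9.56e-06). Irf1 had 24248, 24108 and 23899.8 against 13502, 14548 and 13795 (0.79). Isg15, a ubiquitin-like effector, averaged 14102 ± 327 and 13422 ± 439.5 (SD, n = 3 each), and it was not called (0.593). With plain library totals the antiviral list had 5 higher and 2 lower. Among 14 guanylate-binding and immunity-related GTPases 5 rose and 1 fell. Gbp9 rose by 1.16 and Igtp fell by 0.48, and both share words with relatives (18.3% and 15.9%).

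Of 23 antigen presentation genes 9 rose and none fell (7 and 2 with plain library totals). The costimulatory ligands of T cells were among them: Cd80 had 398, 492 and 486 normalized counts with Brg1 siRNA and 177, 162 and 176 with control siRNA (log2 fold change 1.41, limma adjusted p = 4.76e-07), and Cd86 had 459, 395 and 479.7 against 275, 228 and 227 (0.87). Both are higher in every Brg1 siRNA library. The class I heavy chains H2-D1 and H2-K1 rose by 0.68 and 0.49, with 26.7% and 22.8% of their words shared with other genes, and B2m, their light chain, by 0.43. The class II genes H2-Aa, H2-Ab1 and Cd74 had log2 fold changes of -0.12, -0.12 and -0.23 and were not called.

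Lysosomal genes were the group with the most rises. Of 41 hydrolases, membrane proteins and regulators 27 rose and 4 fell, and the median log2 fold change was 0.35. The asparaginyl protease Lgmn had 20961, 20609 and 19134 normalized counts with Brg1 siRNA and 9588, 10337 and 10042 with control siRNA (1.02, limma adjusted p = 1.32e-09), the membrane protein Gpnmb had 83017, 95146 and 81055 against 44485, 45961 and 49772 (0.88), and Ctsd, Psap, Npc2 and Ctsl rose by 0.65, 0.69, 0.75 and 0.73. Lysozyme Lyz2 rose by 0.82, with 32.8% of its words shared with Lyz1. In Lgmn and Gpnmb the lowest Brg1 siRNA library is far above the highest control library. The collagen-degrading cathepsin Ctsk had 37.4, 61.1 and 51.1 against 188, 177 and 155 (-1.80) and so fell. The transcription factors of lysosome genes Tfeb, Tfe3 and Mitf, at -0.30, 0.13 and 0.03, were not called. The sum of the macrophage markers, of which Lyz2 is itself the largest part, moved in the same direction as this list. Its part in the result was not tested. With plain library totals the list had 24 higher and 6 lower.

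Of 23 efferocytosis, scavenger and Fc receptor genes 7 rose and 4 fell (6 and 7 with plain library totals). The bridging molecules Gas6 and Mfge8, which tag dying cells, averaged 1723 ± 316 and 2880.2 ± 156 with Brg1 siRNA and 934 ± 94.7 and 1579 ± 43.3 with control siRNA (SD, n = 3 each; log2 fold change 0.87 for each gene), and the receptors Mertk and Trem2 rose by 0.66 and 0.71. The lipoprotein receptor Scarb1 fell by 0.78. Of 13 LXR genes 6 rose and 1 fell (3 and 1 with plain library totals). Nr1h3, the sterol-sensing receptor LXR alpha, had 2767, 2921 and 2409 normalized counts with Brg1 siRNA and 1281, 1075 and 1453 with control siRNA (1.09), and its target Apoe had 24568, 24213 and 23035 against 10428, 11067 and 12803 (1.07, limma adjusted p = 4.49e-07). The target Lpcat3 had 466, 553 and 517 against 860.2, 960.2 and 921 (-0.84), and the efflux pumps Abca1 and Abcg1, at -0.20 and 0.19, were not called. Of 27 sterol and fatty acid synthesis genes 13 fell and none rose, with a median of -0.32 (19 and 0 with plain library totals). In vehicle 13 of this list were also called lower and none higher. The desaturase Scd2 had 64.8, 72.3 and 61.4 against 144, 149 and 121 (-1.05), and Srebf2, a transcription factor of sterol synthesis genes, at -0.23, was not called.

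Adhesion, protease and matrix genes changed by member. Of 17 integrins and adhesion genes 7 rose and 3 fell (6 and 7 with plain library totals). Itgax, the CD11c integrin chain, had 1265, 1213 and 1389 normalized counts with Brg1 siRNA and 3529.8, 3089 and 2888 with control siRNA (log2 fold change -1.29, limma adjusted p = 7.95e-10), whereas Itgb7 had 766, 987 and 829.7 against 408, 355 and 432 (1.11). Of 28 metalloproteinase, serpin and plasminogen genes 9 rose and 11 fell (6 and 11 with plain library totals). The gelatinase Mmp9 had 115, 147 and 96.6 against 582, 472 and 571 (-2.19, adjusted p = 4.28e-07). The groups of these genes do not overlap. Of 14 growth factor genes 3 rose and 4 fell (3 and 6 with plain library totals). These are 21.4% and 28.6%, where 17.3% and 15.8% of all genes tested did. Areg, a ligand of the EGF receptor, had 79.8, 111 and 165 against 16.9, 18.5 and 18.2 (2.60), and Pdgfb had 204, 239 and 174 against 759.9, 539 and 664 (-1.66).

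In the stress pathways the share of genes that rose was near the 17.3% of all genes tested, of which 15.8% fell. Of 20 NRF2 and oxidative stress genes 4 rose and 9 fell (20.0% and 45.0%, or 2 and 9 genes with plain library totals). The factor NRF2 itself (Nfe2l2) averaged 17184 ± 684 with Brg1 siRNA and 10954 ± 624 with control siRNA (SD, n = 3 each; log2 fold change 0.65), while its targets Gclc and Gclm, the subunits of the enzyme that starts glutathione synthesis, fell by 0.77 and 0.76, Nqo1 by 0.64 and Hmox1 by 0.46. The iron exporter Slc40a1 had 622, 648 and 639.9 normalized counts with Brg1 siRNA and 1470.1, 1462 and 1372 with control siRNA (-1.17, limma adjusted p = 2.76e-09). Of 25 unfolded protein response and ATF4 genes 5 rose and 7 fell (4 and 12 with plain library totals). The amino acid transporter Slc7a5 had 47.4, 31.2 and 37.5 against 166, 146 and 162 (-2.02), and Ddit3 (CHOP) had 414, 435 and 409 against 266, 226 and 266 (0.73). Of 16 p53 targets 3 rose and 4 fell (3 and 8 with plain library totals), with Cdkn1a and Mdm2, at -0.08 and 0.10, among those not called.

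Mitotic genes fell, and so did some ribosomal protein genes. Of 22 mitotic genes 18 fell and none rose, with a median log2 fold change of -0.87. In vehicle 19 of this list were called lower and none higher, with a median of -0.914. Top2a, the topoisomerase of dividing cells, had 224, 292 and 259 normalized counts with Brg1 siRNA and 409, 551 and 439.6 with control siRNA (-0.85), and the spindle gene Prc1 had 31.2, 53.6 and 31.8 against 84.6, 152 and 80.2 (-1.40, limma adjusted p = 6.09e-05). The proliferation marker Mki67 had 6106, 4902 and 6528 against 6922, 7603 and 6271, groups that overlap, and was not called (0.107). Of 34 replication genes 6 rose and 10 fell (17.6% and 29.4%, where 17.3% and 15.8% of all genes tested did). In vehicle 1 of this list was called higher and 18 lower. Thymidylate synthase Tyms had 56.1, 36.1 and 69.3 against 148, 201 and 117 (-1.52), whereas the repressor E2f8 had 1129.6, 969.5 and 1129 against 411, 471 and 383 (1.35) and E2f1 rose by 0.82. Of 25 ribosomal protein genes 10 fell and none rose (18 and 0 with plain library totals), with Rpl18 lowest of those called at -0.52. In vehicle 8 of this list were called lower and none higher. Of 25 nuclear genes of oxidative phosphorylation 2 rose and 4 fell (0 and 7 with plain library totals). These are 8.0% and 16.0%, and the share that fell is near the 15.8% of all genes tested. Of 24 macrophage lineage factors 8 rose and 2 fell. Cebpa had 98.5, 129.6 and 151 against 263, 248 and 286 (-1.08), Id2 had 3141, 3421 and 2813 against 1923, 1819.8 and 1928 (0.72), and Spi1 (PU.1), at 0.18, was not called.

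**Figure D4:**
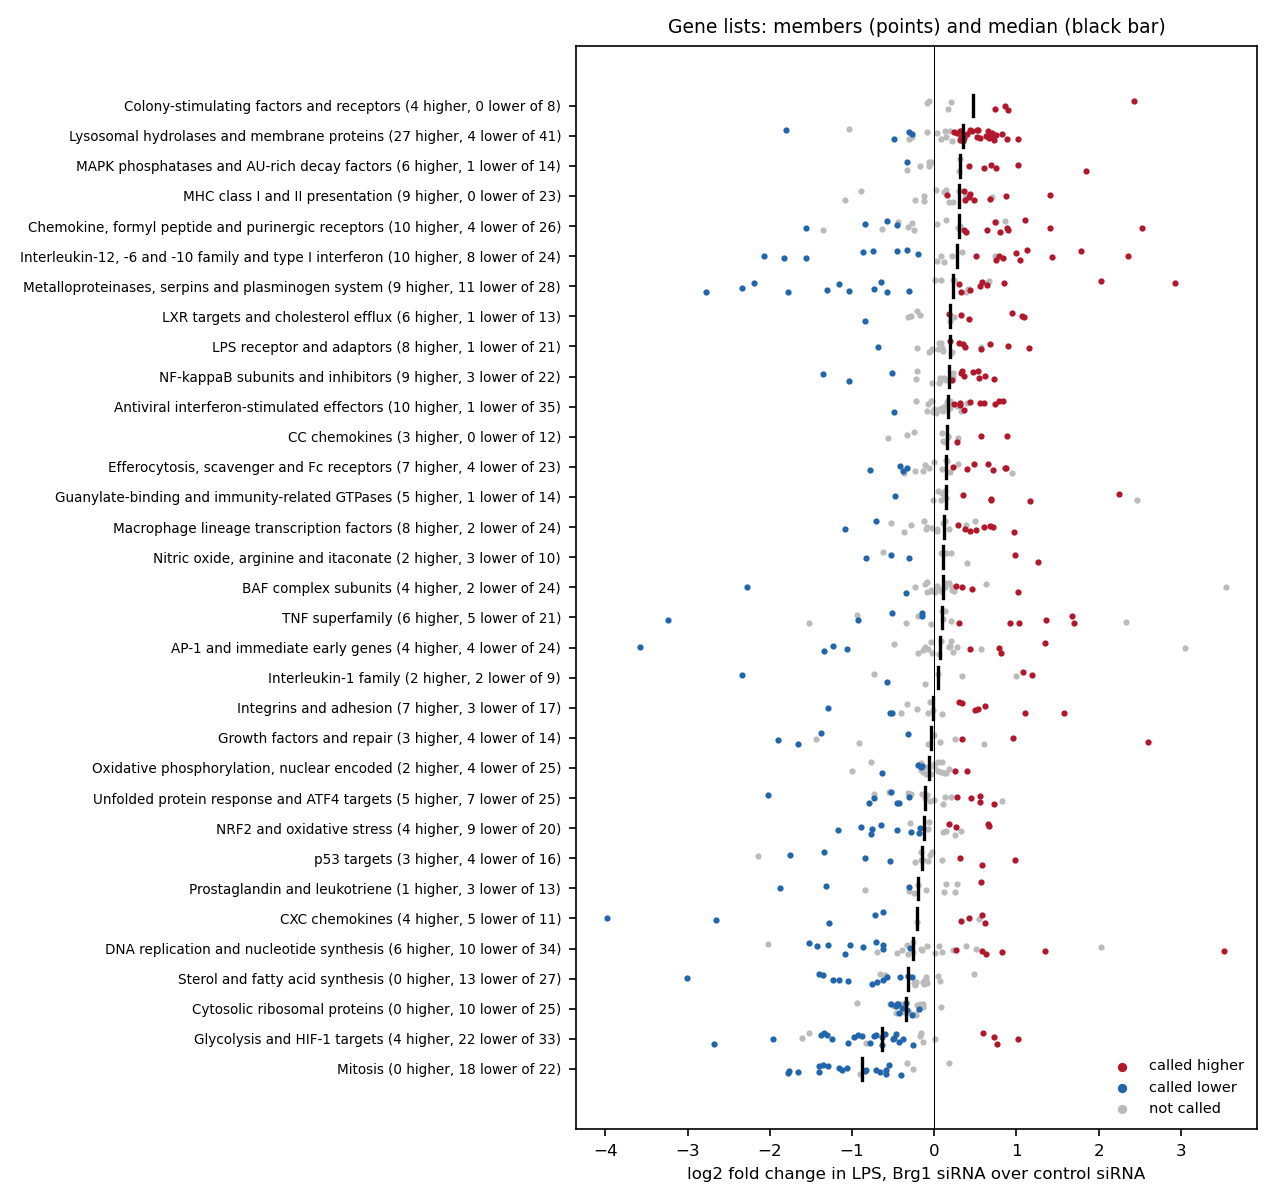
Log2 fold changes in LPS of Brg1 siRNA over control siRNA (horizontal) for the tested members of 33 gene lists (rows), with each list's median as a black bar and its counts of called members in the row label. Colony-stimulating factors and lysosomal genes lie to the right, and mitosis, glycolysis with HIF-1 targets, ribosomal proteins and lipid synthesis to the left.

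Whether the knockdown effect was different under LPS was tested against the same knockdown in vehicle, with no library in common. The difference was called in 1380 genes (11.4%), more positive in LPS in 771 (6.39%) and more negative in 609 (5.05%). Egr2 rose in LPS but averaged 197 ± 7.65 with Brg1 siRNA and 512 ± 32.1 with control siRNA in vehicle (SD, n = 3 each), a difference between the 2 log2 fold changes of 2.72 (SE 0.144, limma adjusted p = 1.93e-09). Il1rn and Saa3, an acute phase protein, did the opposite. Il1rn averaged 1782 ± 93.6 and 601 ± 66.5 in vehicle (difference -2.14), and Saa3 averaged 32913 ± 1374 and 73138 ± 5291 in LPS but 111 ± 12.7 and 42.1 ± 9.09 in vehicle (-2.55). Gpr65 was near its control in vehicle, at 903 ± 66.3 and 766 ± 23.9 (difference 2.31). Ticam2 averaged 462 ± 31.1 and 488 ± 15.3 in vehicle, where it was not called (difference 1.24), and Tnf had a log2 fold change of 0.92 in LPS and 0.18 in vehicle (difference 0.74). Pfkfb3 averaged 577 ± 38.8 and 334 ± 21.6 in vehicle, and 13 of the 33 glycolysis and HIF-1 genes had a more negative effect in LPS while 2 had a more positive one. Of the antiviral list 12 of 35 had a more negative effect in LPS and 1 a more positive one. In vehicle 25 of this list were called higher and none lower, with a median log2 fold change of 0.488 against 0.165 in LPS. Of the lysosomal list 9 of 41 had a more positive effect in LPS and none a more negative one. In vehicle 23 of the lysosomal list were already called higher and 4 lower.

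**Figure D5:**
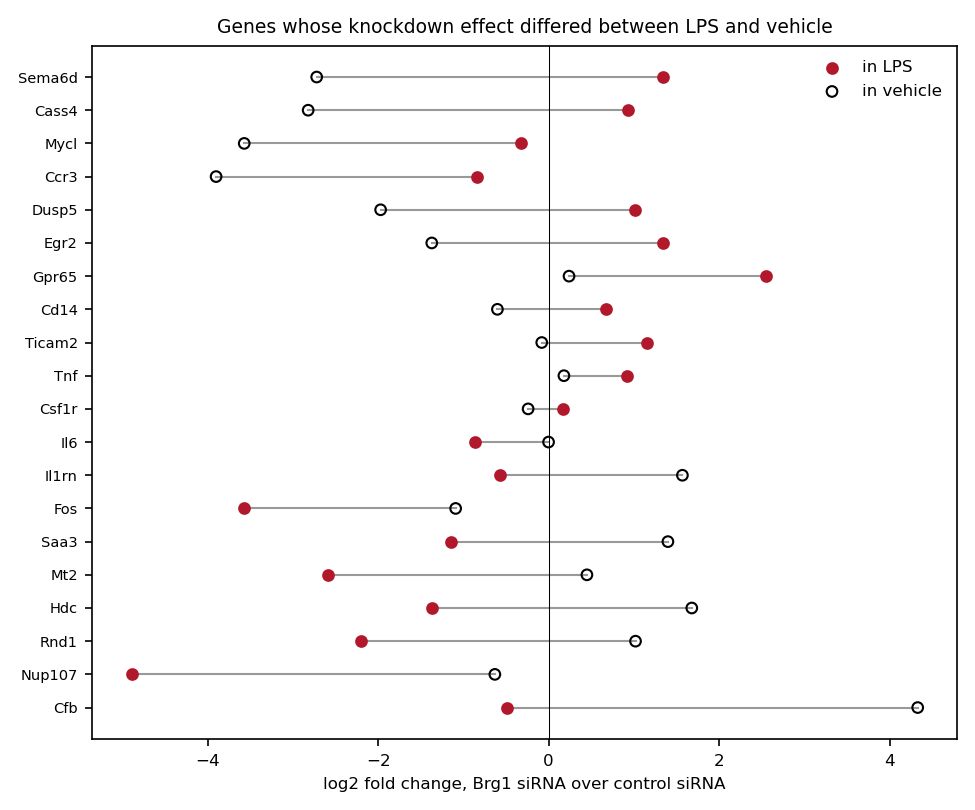
Log2 fold change of Brg1 siRNA over control siRNA (horizontal) in LPS (filled red) and in vehicle (open black). The genes drawn are only a part of those whose difference was called. They had the largest differences by rule, belonged to the fixed set or were added after their values were seen. Other genes named in the text had a called difference but are not drawn, such as Csf2 (2.72) and Hp (-2.48). Egr2, Dusp5, Cass4, Sema6d and Cd14 lie above 0 in LPS and below 0 in vehicle, and Il1rn, Saa3, Mt2, Hdc, Rnd1 and Cfb the other way round.

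With dexamethasone added to LPS the effect was different in fewer genes, 479 (3.97%), of which 147 were more positive in LPS without dexamethasone (1.22%) and 332 more negative (2.75%). The fall of Pfkfb3 was -1.96 in LPS and -0.25 in Dex+LPS, a difference of -1.71 (SE 0.108, limma adjusted p = 5.18e-08). The difference was -1.82 for Il10, and also -1.82 for Fos, which had a log2 fold change of -3.57 in LPS and -1.75 in Dex+LPS. Fabp4, a fatty acid binding protein, had 1042, 1043 and 989 normalized counts with Brg1 siRNA and 233, 347 and 331 with control siRNA in LPS (1.77) and a log2 fold change of -0.03 in Dex+LPS. The guidance receptor Plxna2 rose by 1.76 in LPS, against 0.35 in Dex+LPS. Cxcl10 went the other way, with 0.42 in LPS and 1.94 in Dex+LPS.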

How the data were processed

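RNA was sequenced from 20 macrophage libraries in 6 groups of 3 or 4. Per the submitters' processing notes, Salmon 1.4.0, DESeq, DESeq2 and R 4.1.0 were used with mm10 and GRCm38.p6. A stranded kit is named in the labels' protocols, but whether counting used the strand is not given in the sources used here. The values the authors deposited are a signal per gene, normalized by library size factors. Per the file headers, the authors' table also holds their own log2 fold change and adjusted p-value of each comparison. Whole reads could be recovered from the signal for 99.95% of non-zero values (tolerance 0.01 reads), and depths over the 20 libraries were 13.69 to 18.71 M.

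The main test was limma 3.58.1 (R 4.3.3) with a trend, on log2(normalized count + 1), over all 6 groups in one fit, for 12061 genes with at least 10 in at least 3 libraries. P-values were Benjamini-Hochberg adjusted over these genes and called under 0.05. Interactions tested the effect in LPS minus that in vehicle or in Dex+LPS. edgeR 4.0.16 and DESeq2 1.42.0 were run on the recovered reads as alternatives: edgeR called 3868 genes, 3769 of them shared. The authors' deposited table calls 3941 of the genes tested, 3717 shared. The script was tested on simulated data. Counting error sets the precision of low values: a gene at 0 in a library may have an expected count of up to 3 reads there (95% bound).

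Named genes are the 12 largest rises and falls with a mean of at least 100 in the higher group, groups that do not overlap and agreeing libraries, up to 4 called members per list, the 5 largest gains and losses of counts, the 5 largest positive and negative differences per interaction, and a short fixed set. Some genes that meet this rule are not reported here. Other list members were named after their values were seen, as were the interactions of Egr2, Il1rn, Ticam2, Cd14, Gpr65 and Saa3. The genes and lists were chosen with earlier results of these data known. Shared words are 31-base stretches of a gene's GENCODE transcripts also found in another gene. Promoters are from RefSeq. Coordinates are GRCm38.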

Additional observations from a re-analysis of the deposited data

Results flagged for a closer look

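Each result here is a knockdown effect, Brg1 siRNA over control siRNA on the log2 scale, that was different between LPS and another treatment by limma's interaction test. Values are the effect in LPS minus that in the other treatment. The genes listed had the largest differences by rule, belonged to the fixed set or, against vehicle, were added after their values were seen. Other genes named above also had called differences, so the lists are not complete.

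Against vehicle, more positive effects in LPS were found for Sema6d (4.05), Cass4 (3.75), Mycl (3.25), Ccr3 (3.06), Dusp5 (2.99), Egr2 (2.72), Gpr65 (2.31), Cd14 (1.27), Ticam2 (1.24), Tnf (0.74) and Csf1r (0.41). Mycl and Ccr3 were not higher in LPS, where their log2 fold changes were -0.32 and -0.84, but much lower in vehicle, at -3.57 and -3.90. Sema6d averaged 0.853 normalized counts with Brg1 siRNA and 9.36 with control siRNA in vehicle, so that its difference rests on few reads and ranged from 2.61 to 4.87 over the alternatives. The call of Csf1r ended in 1 of 18 alternatives.

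More negative effects in LPS than in vehicle were found for Cfb (-4.82), Nup107 (-4.26), Rnd1 (-3.22), Hdc (-3.05), Mt2 (-3.04), Saa3 (-2.55), Fos (-2.48), Il1rn (-2.14) and Il6 (-0.86). Cfb, a complement factor, averaged 118 normalized counts with Brg1 siRNA and 9.42 with control siRNA in vehicle, and it shares 75.5% of its words with other genes. Hdc averaged 6.69 and 1.70 in vehicle, and Il6 was at 0 in all 6 vehicle libraries, so that its value is that of LPS alone, and its call ended in 2 of 18 alternatives. The difference of Nup107 ranged from -6.08 (without Brg1 siRNA replicate 2, which held 43.6 normalized counts while the other Brg1 siRNA libraries held 0) to -2.22 (DESeq2), and its call ended in 8 of 18 alternatives, with an adjusted p of up to 0.188.

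Against Dex+LPS, more positive effects in LPS were found for Coq8a (2.40), Fabp4 (1.80), Plxna2 (1.41), Gpr155 (1.26), Csf3 (1.15), Tnf (0.39) and Csf1r (0.32). More negative ones were found for Fos (-1.82), Il10 (-1.82), Zbtb21 (-1.77), Pfkfb3 (-1.71), Rnd1 (-1.70), Cxcl10 (-1.51), Tlr4 (-0.79) and Ccl2 (-0.63). Calls ended in 12 of 18 alternatives for Csf3 (adjusted p up to 0.119), 10 for Ccl2 (0.147), 7 for Csf1r (0.118), 6 for Gpr155 (0.123), 2 for Zbtb21 (0.0949), and 1 each for Tlr4 (0.0809) and Coq8a (0.0602). These 15 differences share the LPS libraries with those against vehicle.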

How the results depend on the processing

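No direction reversed among 173 named genes under 18 alternatives, 139 of which kept their side of the threshold in every one. Of 3113 values, 2992 were on the same side, 104 lost and 17 gained a call. Plain library totals as scaling gave 1334 genes higher and 2919 lower in LPS, and 921 with a more negative effect in LPS than in vehicle. For the difference from Dex+LPS, the count of more positive genes was 88 when only the libraries compared were fitted, 270 with the number series as a term, 94 without the higher-numbered libraries and 252 by DESeq2, and that of more negative genes was 206 without the higher-numbered libraries; the cause was not tested. Leaving out 1 LPS library gave 1754 to 1889 genes higher and 1566 to 1720 lower in LPS, 631 to 744 and 479 to 580 against vehicle, and 111 to 120 and 236 to 270 against Dex+LPS. Where this left 2 libraries in a group, the spread came from all groups. Deviations of same-numbered LPS libraries from their group means correlated at 0.00514, -0.166 and -0.149. The highest correlation of any pair, 0.207, was between the 2 higher-numbered libraries. The deviations within a group are tied to one another, and same-numbered pairs 2 and 3 mix the number series. These values therefore cannot decide whether replicate numbers pair the samples. With the replicate number as a block 2204 genes were higher and 2018 lower in LPS. Low counts limit Nup107, Sema6d, Hdc and Egln3.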

Other observations

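The summed normalized counts over all genes were 19.93, 19.23 and 20.05 M in the Brg1 siRNA libraries and 17.88, 18.14 and 17.76 M in the control siRNA libraries of LPS-treated macrophages. Genes that rose gained 2.35 M counts between the group means and genes that fell lost 0.81 M. The 100 most abundant genes held 33.3 to 33.9% of counts with Brg1 siRNA and 30.2 to 30.6% with control siRNA. The groups do not overlap in either measure.

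Ighm, the heavy chain of immunoglobulin M and a B cell marker, had 4.99, 8.72 and 5.68 normalized counts with Brg1 siRNA and 65.4, 103 and 92.0 with control siRNA, a log2 fold change of -3.56 (limma adjusted p = 5.7e-08). The other B cell marker tested was not called, and whether the cells or the transcript differ was not tested.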
